A study of Mus musculus with 3 samples.

Results

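The 9 Hedgehog pathway genes described here are Shh, Ptch1, Smo, Gli1, Gli2, Gli3, Hhip, Boc and Cdon. They were chosen by symbol from textbook knowledge of the pathway, and 9 of 9 were found among the 33696 genes of the count tables. The study profiled dorsal skin cells by droplet single-cell RNA sequencing to compare 3 groups of 9-week-old female C57BL/6 mice, all depilated with wax strips. CIA+VFX was the chemotherapy-induced alopecia model treated with VFX (venlafaxine, an inhibitor of serotonin and noradrenaline reuptake). CIA was the same model without VFX, and Cont was the vehicle control. The labels used here name no chemotherapy agent, dose or day of sampling. Skin of several mice was pooled into 1 library per group, dissociated with collagenase D and enriched on Percoll, so n = 1 library per group. No difference below has a replicate check. Every interval is a 95% interval that covers counting error only.

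Hedgehog ligands bind the receptor Patched1 (Ptch1), which otherwise holds the membrane protein Smoothened (Smo) inactive. Once released, Smo acts through the primary cilium on the GLI transcription factors. Gli2 carries most of the activating function, Gli3 is processed largely into a repressor, and Gli1 is itself switched on by the pathway. Boc and Cdon are co-receptors that present ligand to Ptch1, and Hhip is a decoy that binds ligand at the cell surface. Ptch1, Gli1 and Hhip are widely used as transcriptional readouts of signalling. In growing hair follicles Shh is made by cells on one side of the epithelial matrix, and it acts on the neighbouring epithelium and on the dermal papilla, the mesenchymal cell cluster at the base of the follicle.

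Because the results turn on Ptch1 and Hhip as readouts and on Gli2 as their activator, the RefSeq promoter windows of these genes are shown from 250 bases before to 50 bases after the annotated start. The table is for GRCm38.p6, whereas the counts were made on GRCm39. It held 6 of the 9 genes, and Shh, Gli1 and Boc are named only. Capitals mark a match to the GLI core motif ACCACCC, read on either strand.

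Ptch1 (chr13:63565686-63565985, minus strand): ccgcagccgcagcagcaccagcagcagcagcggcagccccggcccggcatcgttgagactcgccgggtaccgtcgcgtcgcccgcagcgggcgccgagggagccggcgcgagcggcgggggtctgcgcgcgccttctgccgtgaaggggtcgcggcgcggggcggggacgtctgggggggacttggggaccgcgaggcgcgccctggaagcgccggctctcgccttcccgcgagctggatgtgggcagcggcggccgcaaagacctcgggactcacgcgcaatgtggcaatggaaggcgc

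Hhip (chr8:80057959-80058258, minus strand): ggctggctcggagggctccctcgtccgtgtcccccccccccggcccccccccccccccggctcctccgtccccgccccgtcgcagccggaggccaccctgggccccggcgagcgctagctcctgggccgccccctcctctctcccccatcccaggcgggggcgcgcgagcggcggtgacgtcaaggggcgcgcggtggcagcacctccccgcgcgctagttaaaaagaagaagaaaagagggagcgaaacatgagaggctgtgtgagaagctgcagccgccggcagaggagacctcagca

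Gli2 (chr1:119053570-119053869, minus strand): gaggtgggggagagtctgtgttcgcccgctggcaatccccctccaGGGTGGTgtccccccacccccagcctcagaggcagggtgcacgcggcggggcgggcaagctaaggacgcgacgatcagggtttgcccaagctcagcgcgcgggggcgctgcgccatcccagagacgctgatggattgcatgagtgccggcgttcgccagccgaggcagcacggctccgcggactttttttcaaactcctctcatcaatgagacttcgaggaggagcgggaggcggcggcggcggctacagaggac

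The Gli2 window held 1 match, as GGGTGGT on the printed strand, starting 205 bases before the annotated start. The other 5 windows, those of Ptch1, Hhip, Smo, Gli3 and Cdon, held none. Of 32851 RefSeq promoter windows of the same length, 4.61% held this motif on either strand. A match is a description of the sequence and says nothing of binding.

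The CIA+VFX, CIA and Cont libraries held 18987, 17675 and 14529 barcodes, with median depths of 4923, 4977 and 5950 UMIs (unique molecules). After filters and removal of likely doublets, 15372 CIA+VFX, 15401 CIA and 11904 Cont cells were kept. CIA+VFX and CIA shared 110 barcodes, CIA+VFX and Cont 75, and CIA and Cont 79. Median mitochondrial shares were 2.40% in CIA+VFX, 1.42% in CIA and 2.32% in Cont. The cells were clustered without the Hedgehog genes and their pathway lists, and 38 of 60 clusters were named from markers into 21 classes, written "-like". The other 22 keep their number. Levels are CPM, the gene's UMIs per 1000000 UMIs of the class in that library. Comparisons were made in the 16 named classes and 18 unnamed clusters with 50 or more cells in every library. A gene counted as measured with at least 50 UMIs in the 2 libraries compared. It was called higher or lower at 1.5-fold or more with an interval that excludes equality. The 3 comparisons share libraries and are therefore not independent of one another.

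**Figure D1:**
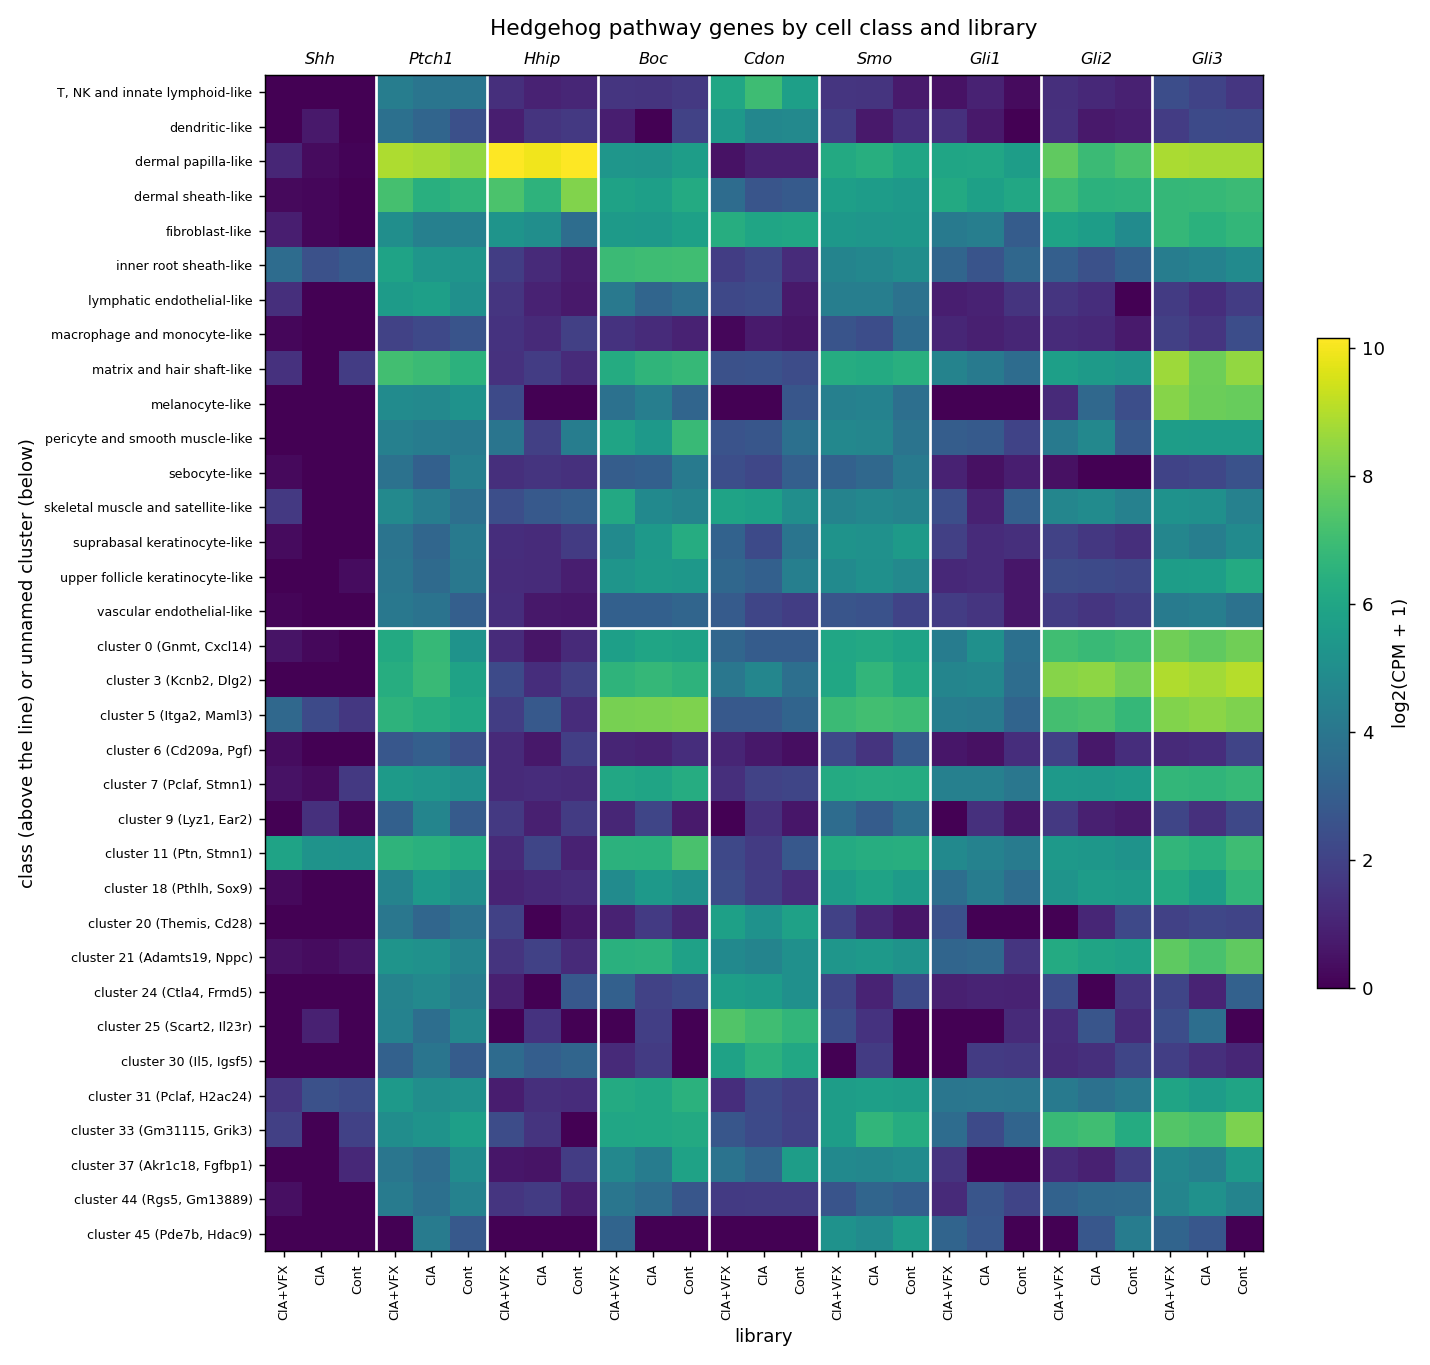
Level of each Hedgehog gene as log2(CPM + 1), by class or unnamed cluster (rows) and library (columns, CIA+VFX, CIA and Cont for each gene). Hhip is high in dermal papilla-like cells, Shh in cluster 11, Boc in cluster 5 and Cdon in lymphoid and fibroblast-like cells.

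Shh, the ligand, was concentrated in 1 group of proliferating follicle epithelial cells, and epithelial Shh was lower in CIA than in both other libraries. Over all epithelial clusters Shh stood at 5.75 CPM in CIA+VFX, 2.46 CPM in CIA and 4.85 CPM in Cont. CIA was lower than Cont by a log2 ratio of -0.98 (-1.31 to -0.65), and CIA+VFX was higher than CIA by 1.22 (0.91 to 1.55). Both were called. CIA+VFX against Cont gave 0.25, which was not called (0.82 after thinning each cell to 2000 UMIs, above the fold). Of all genes measured in the epithelial compartment, 4.22% were called lower in CIA than in Cont and 2.05% higher in CIA+VFX than in CIA, and of the 9 members, all measured, only Shh was called in either comparison.

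Most of the Shh came from cluster 11, which was led by Ptn, Stmn1, Cldn10 and Pclaf and also by Mki67, a marker of cycling cells. It scored close to both companion layer and inner root sheath and was left unnamed. Cluster 11 held 307 of 400 epithelial Shh UMIs in CIA+VFX, 75 of 103 in CIA and 184 of 320 in Cont. These are 76.8%, 72.8% and 57.5% of them. Cluster 11 made up 8.36% of epithelial cells in CIA+VFX (555 of 6641), 5.29% in CIA (224 of 4238) and 8.07% in Cont (356 of 4413). The exact binomial intervals were 7.70% to 9.05% in CIA+VFX, 4.63% to 6.00% in CIA and 7.28% to 8.91% in Cont, and that of CIA overlapped neither of the others.

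Within cluster 11 the Shh level was 58.5 CPM in CIA+VFX, 36.1 CPM in CIA and 34.8 CPM in Cont. CIA and Cont thus had overlapping intervals inside this cluster, with a log2 ratio of 0.05 (-0.35 to 0.45). CIA+VFX was called higher than CIA (log2 0.70) and than Cont (0.75), where 3.05% and 4.45% of measured genes were called higher. Both calls were lost when the level was taken as a mean over cells (0.36 and 0.38). Depth differed as well, with medians of 8364 UMIs in CIA+VFX, 7685 in CIA and 14350 in Cont. Per cell of the cluster, Shh gave 0.553 UMIs in CIA+VFX, 0.335 in CIA and 0.517 in Cont. The part of depth in the CPM difference between CIA+VFX and Cont was not tested.

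Few cells carried this signal. A Shh UMI was seen in 89 of the cluster 11 cells in CIA+VFX, 33 in CIA and 55 in Cont. These are 16.04%, 14.7% and 15.4% of the cluster. The highest cell held 23 UMIs in CIA+VFX, 9 in CIA and 17 in Cont. After thinning each cell to 2000 UMIs, the shares were 8.48% in CIA+VFX, 4.22% in CIA and 4.10% in Cont, from 389, 166 and 293 cells. Macrophage and monocyte-like cells, which should lack the gene, had a Shh UMI in 1 of 1429 cells in CIA+VFX. They had 0 of 2177 in CIA, which allows a share of up to 0.138%, and 0 of 1168 in Cont, which allows up to 0.257%.

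Outside cluster 11, Shh was lowest per cell in CIA. The remaining epithelial cells gave 0.0153 Shh UMIs per cell in CIA+VFX, 0.00698 in CIA and 0.0335 in Cont. Inner root sheath-like cells, which build the sheath around the hair shaft, were next in level among the named classes. Their Shh was 10.95 CPM in CIA+VFX, 4.78 CPM in CIA and 6.37 CPM in Cont, from 46, 11 and 64 UMIs. CIA+VFX was called higher than CIA (log2 1.20, background 5.23%) and than Cont (0.78, background 4.75%). Thinning moved the first to 2.58. The call against Cont was lost under 4 of the alternatives, with values between 0.16 and 0.37. Cluster 5, led by Itga2 and Maml3, had 9.74 CPM in CIA+VFX, 3.88 CPM in CIA and 2.17 CPM in Cont, too few UMIs to be compared. Clusters 31 and 7 had less Shh in CIA+VFX than in Cont, also from too few UMIs. Cluster 31 had 1.98 CPM in CIA+VFX, 4.74 CPM in CIA and 3.98 CPM in Cont (8, 9 and 33 UMIs). Cluster 7 had 0.41 CPM in CIA+VFX, 0.24 CPM in CIA and 2.20 CPM in Cont (5, 1 and 22 UMIs).

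**Figure D2:**
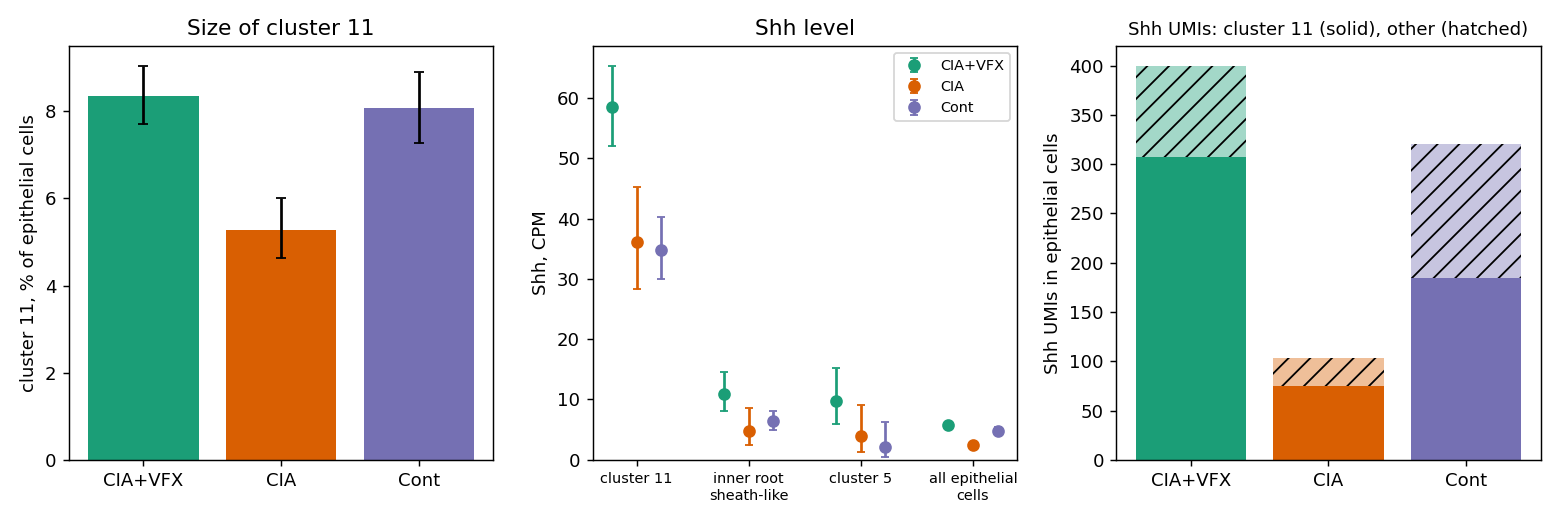
Left, cluster 11 as a percent of epithelial cells with exact binomial intervals. Middle, Shh in CPM with exact Poisson intervals in cluster 11, inner root sheath-like cells, cluster 5 and all epithelial cells. Right, Shh UMIs in epithelial cells, in cluster 11 (solid) and elsewhere (hatched). CIA has the smallest cluster 11 and the fewest Shh UMIs, with 400 UMIs in CIA+VFX, 103 in CIA and 320 in Cont.

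Ptch1 and Gli1 were also detected in the Shh-bearing cells of cluster 11, whereas Hhip had 0 UMIs in them in each of the 3 libraries. Ptch1 in cells with a Shh UMI was 103 CPM in CIA+VFX, 82.8 CPM in CIA and 95.1 CPM in Cont. In cells of the cluster without one, it was 94.7, 87.8 and 67.3 CPM. Gli3, the gene of the main repressor, was 51.3, 55.9 and 73.9 CPM in cells with a Shh UMI and 121, 95.9 and 142 CPM in cells without, in CIA+VFX, CIA and Cont. It was thus lower in the Shh-bearing cells of each library. Cells with a Shh UMI were also deeper, with medians of 14490, 12950 and 21160 UMIs against 6336, 5205 and 12900. The part of depth in this difference was not tested.

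Cluster 11 as a whole gave a co-receptor difference. Boc was 90.6 CPM in CIA+VFX, 89.0 CPM in CIA and 151 CPM in Cont. It was called lower in CIA than in Cont (log2 -0.77), where 5.44% of measured genes were called lower. The same held for CIA+VFX against Cont (-0.74, background 2.52%), but that call was lost as a mean over cells (-0.54). Gli1 was 27.4 CPM in CIA+VFX, 21.7 CPM in CIA and 18.0 CPM in Cont, with CIA+VFX called higher than Cont (0.61). A stricter cell filter and a finer clustering moved that value to 0.56 and 0.57, under the fold.

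The other ligand genes were sparse. Ihh gave 1 UMI in all kept CIA+VFX cells, 2 in CIA and 4 in Cont. Dhh, the ligand known from Schwann cells and testis, stood at 96.5 CPM in 36 Schwann-like cells of CIA+VFX, 123 CPM in 73 of CIA and 173 CPM in 17 of Cont. These cells were too few to be compared. Over all kept cells Dhh had 104 UMIs in CIA+VFX, 105 in CIA and 47 in Cont, of which 46, 35 and 3 lay in vascular endothelial-like cells. Its level in that class was 4.74 CPM in CIA+VFX, 4.95 CPM in CIA and 1.58 CPM in Cont, the last from the 3 UMIs.

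Dermal papilla-like cells carried the most Ptch1 and by far the most Hhip in all 3 libraries, and neither readout was called different there. They comprised clusters 8, 32 and 42, with 751 cells in CIA+VFX, 810 in CIA and 557 in Cont. Their 7 defining markers, including Corin, Crabp1 and Rspo2, summed to 6634 CPM in CIA+VFX, 6058 CPM in CIA and 6107 CPM in Cont, with none at 0. The class held 89.2% of all Hhip UMIs in CIA+VFX, 86.7% in CIA and 91.4% in Cont. It also held 47.9%, 51.4% and 54.3% of all Ptch1 UMIs.

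Hhip in dermal papilla-like cells was 1110 CPM in CIA+VFX, 977 CPM in CIA and 1140 CPM in Cont. Its log2 ratio of -0.22 (-0.26 to -0.18) for CIA against Cont excluded equality but was below the fold. Ptch1 was 475 CPM in CIA+VFX, 440 CPM in CIA and 359 CPM in Cont. The ordering was thus different from that of Hhip, since Cont was lowest for Ptch1 and highest for Hhip. For Ptch1 the ratio was 0.29 for CIA against Cont, 0.11 for CIA+VFX against CIA and 0.40 for CIA+VFX against Cont. Gli1 was 62.0 CPM in CIA+VFX, 63.0 CPM in CIA and 48.8 CPM in Cont. The direction of Gli1 for CIA against Cont turned with the treatment of depth, being 0.37 in summed UMIs, -0.37 after thinning to 2000 UMIs and -0.037 as a mean over cells. Median depths of the class were 4748 UMIs in CIA+VFX, 4644 in CIA and 8368 in Cont.

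Gli2 was the only member called in this class. It stood at 204 CPM in CIA+VFX, 122 CPM in CIA and 152 CPM in Cont. CIA+VFX was higher than CIA by 0.74 (0.63 to 0.85), where 3.57% of measured genes were called higher and 2.23% lower, so 1 of 7 measured members was called. Thinning and the mean over cells brought it to 0.45 and 0.46, below the fold. No member was called for CIA against Cont, where 7.48% of measured genes were called higher and 5.08% lower, nor for CIA+VFX against Cont, where 8.22% and 3.55% were. Gli3 stayed within narrow bounds, with 470 CPM in CIA+VFX, 443 CPM in CIA and 439 CPM in Cont. Smo was 71.7 CPM in CIA+VFX, 82.4 CPM in CIA and 61.6 CPM in Cont. The co-receptor Boc was 39.3, 38.6 and 48.8 CPM, and Cdon was at 0.42, 0.93 and 0.93 CPM in CIA+VFX, CIA and Cont.

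The clusters within the class differed among themselves. Cluster 42, led by Dcc and Grid1, was the shallowest, with median depths of 1591 UMIs in CIA+VFX, 2068 in CIA and 2253 in Cont. It had the highest Ptch1 of all compared clusters, at 635 CPM in CIA+VFX, 675 CPM in CIA and 442 CPM in Cont, and CIA was called higher than Cont (log2 0.61, background 11.2%). That call was lost without doublet removal (0.36) and as a mean over cells (0.37). In cluster 32, led by Wif1 and Crabp1, Hhip was 983 CPM in CIA+VFX, 819 CPM in CIA and 1273 CPM in Cont. CIA was called lower than Cont there (-0.64, background 7.69%), but not at a finer clustering (-0.48). In cluster 8, led by Rspo3 and Sostdc1, Gli2 was 202 CPM in CIA+VFX, 109 CPM in CIA and 148 CPM in Cont. CIA+VFX was called higher than CIA by 0.88 (background 3.33%). That call held under every alternative run, but classing cells by their own markers was not run for numbered clusters.

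The dermal sheath-like cells, which line the follicle from outside, differed in Hhip between all 3 libraries. Hhip was 155 CPM in CIA+VFX (525 cells), 94.1 CPM in CIA (836 cells) and 299 CPM in Cont (218 cells). The 3 intervals did not overlap. CIA was lower than Cont by a log2 ratio of -1.67 (-1.81 to -1.53), CIA+VFX was higher than CIA by 0.72 and lower than Cont by -0.95. Of all measured genes in this class, 4.10% were called lower in CIA than in Cont, 4.35% higher in CIA+VFX than in CIA, and 2.32% lower and 4.96% higher in CIA+VFX than in Cont. Without doublet removal the values were -0.96, 0.52 and -0.43, so that both calls of CIA+VFX were lost. For CIA+VFX against CIA, the value was also below the fold by the cells' own markers (0.40) and after thinning (0.57).

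Ptch1 in dermal sheath-like cells was 144 CPM in CIA+VFX, 83.8 CPM in CIA and 99.9 CPM in Cont. CIA+VFX was called higher than CIA (log2 0.78), and CIA against Cont was -0.25. Classing each cell by its own markers gave 0.34 and keeping doublets gave 0.40, both below the fold. Gli1 was 70.3 CPM in CIA+VFX, 54.2 CPM in CIA and 67.8 CPM in Cont, with no call. Cdon was 10.96 CPM in CIA+VFX, 5.35 CPM in CIA and 6.36 CPM in Cont and was called higher in CIA+VFX than in both, calls that were also lost without doublet removal (0.33 and 0.49). Thus 3 of 8 measured members were called higher in CIA+VFX than in CIA. Dermal papilla markers summed to 1191 CPM in CIA+VFX, 1559 CPM in CIA and 1262 CPM in Cont in this class. Their part in the Hhip difference was not tested.

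The larger of its clusters, cluster 10, led by Tnn and Gpc5, gave the same directions. Ptch1 there was 165 CPM in CIA+VFX, 82.4 CPM in CIA and 99.95 CPM in Cont, and CIA+VFX was called higher than CIA by 1.004 (background 5.68%). Hhip was 209 CPM in CIA+VFX, 116 CPM in CIA and 355 CPM in Cont. CIA was called lower than Cont by -1.61 (background 5.38%), and CIA+VFX higher than CIA by 0.85. These 3 calls held under every alternative run, but classing cells by their own markers was not run for numbered clusters. Against Cont, CIA+VFX was called higher for Ptch1 (0.73) and lower for Hhip (-0.76), and neither call held throughout. Ptch1 was below the fold at a coarser clustering (0.57), at a finer one (0.51) and after thinning (0.55). Hhip was below it without doublet removal (-0.46). Cluster 10 had 374 cells in CIA+VFX, 642 in CIA and 170 in Cont.

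**Figure D3:**
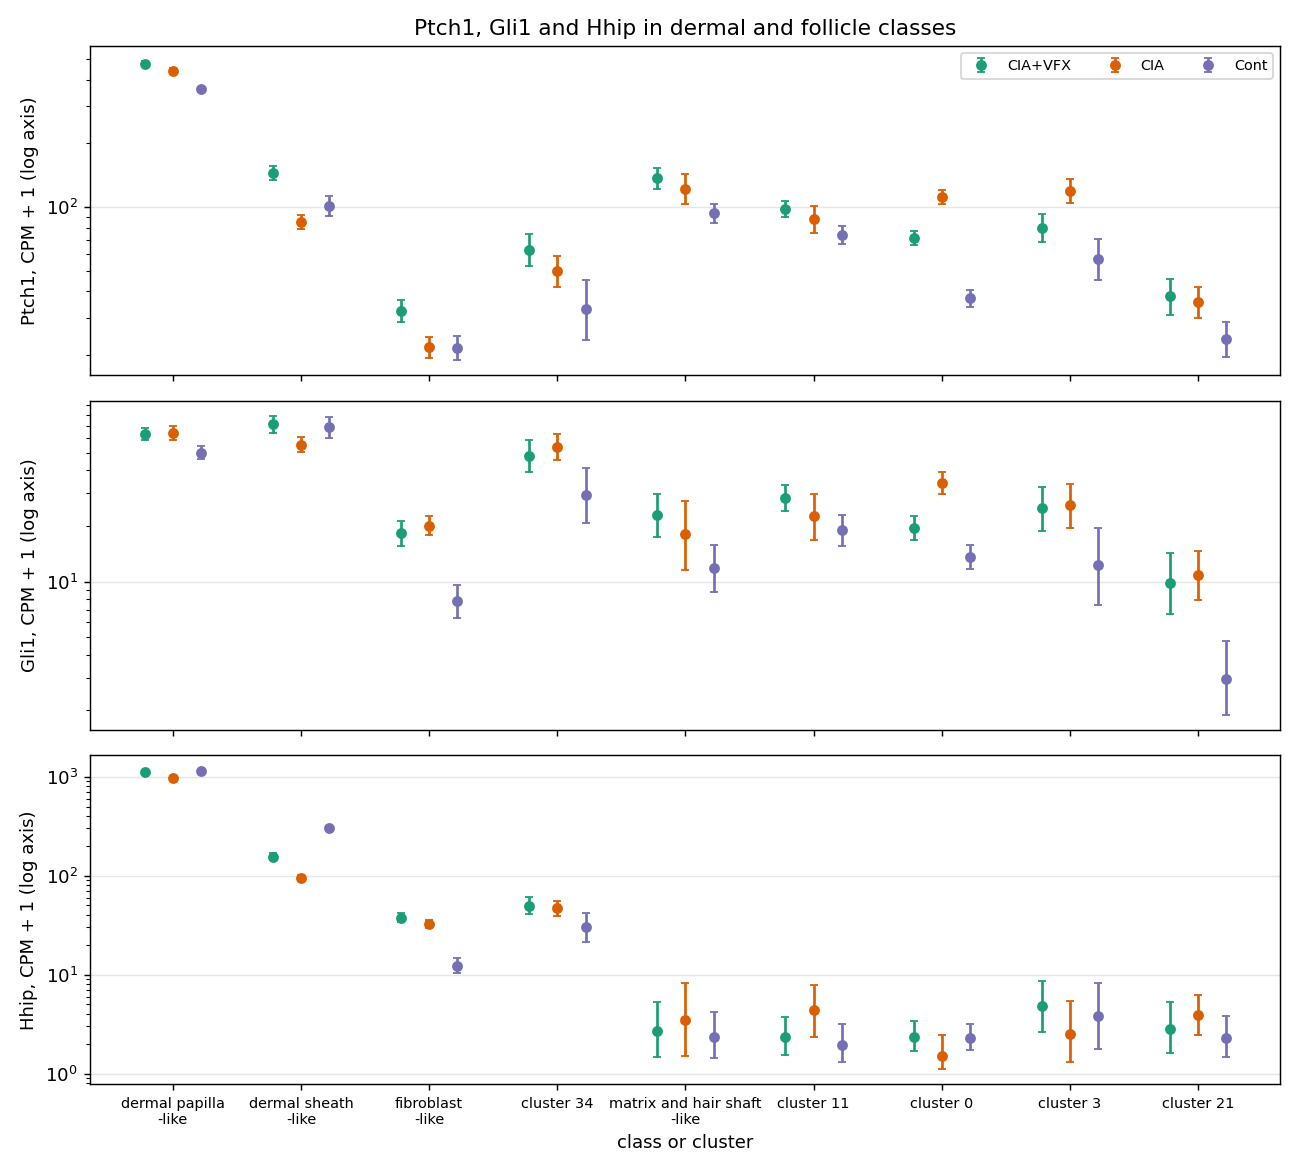
Ptch1, Gli1 and Hhip as CPM + 1 on log axes in dermal and follicle classes, for CIA+VFX, CIA and Cont, with exact Poisson intervals. Hhip spans from about 1000 CPM in dermal papilla-like cells to near 0 in the epithelial clusters, and Ptch1 in cluster 0 is highest in CIA.

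In fibroblast-like cells, which fill the dermis between follicles, Hhip differed in the other direction than in the dermal sheath. Hhip was 36.7 CPM in CIA+VFX, 31.8 CPM in CIA and 11.3 CPM in Cont, and Gli1 was 17.3 CPM in CIA+VFX, 19.1 CPM in CIA and 6.82 CPM in Cont. Both were called higher in CIA than in Cont (log2 1.49 for Hhip and 1.48 for Gli1) and in CIA+VFX than in Cont (1.70 and 1.34). Gli2 was 59.0 CPM in CIA+VFX, 48.9 CPM in CIA and 29.2 CPM in Cont and was called in the same comparisons (0.74 and 1.02). Ptch1 was 31.4 CPM in CIA+VFX and 20.7 CPM in both CIA and Cont, and CIA+VFX was called higher than CIA (0.60, where 4.68% of measured genes were) and than Cont (0.60). Both Ptch1 calls fell just below the fold under median-of-ratios scaling (0.50 and 0.50). So 3 of 8 measured members were called higher in CIA than in Cont, where 6.45% of measured genes were, and 4 of 8 higher in CIA+VFX than in Cont, where 6.98% were.

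The make-up of this class differed between the libraries. Cluster 2, led by Myoc and Thbs4, was its largest cluster in CIA+VFX and CIA (564 of 1161 and 949 of 1942 cells). Cluster 13, led by Col1a1, was the largest in Cont (521 of 1174 cells). The Gli2 difference for CIA against Cont was -0.021 and -0.026 at coarser and finer clustering, and the Gli2 and Ptch1 calls for CIA+VFX against Cont were lost there (0.33 and 0.33 for Gli2, 0.19 and 0.20 for Ptch1). Hhip for CIA+VFX against Cont was 1.08 as a mean over cells. Cluster 13 had little of either readout, with Gli1 at 1.80, 1.06 and 1.09 CPM and Hhip at 0.90, 1.06 and 0.65 CPM in CIA+VFX, CIA and Cont. In cluster 2, Gli1 was 13.8 CPM in CIA+VFX, 20.3 CPM in CIA and 13.9 CPM in Cont, with no call.

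Cluster 2 itself gave calls for Hhip and Ptch1. Hhip was 62.1 CPM in CIA+VFX, 53.7 CPM in CIA and 31.1 CPM in Cont. It was called higher in CIA than in Cont (log2 0.79, background 4.43%) and in CIA+VFX than in Cont (0.9998, background 5.27%). These values were 0.25 and -0.84 at a finer clustering, 0.26 and 0.40 after thinning and 0.20 and 0.19 as a mean over cells. Ptch1 was 25.3 CPM in CIA+VFX, 16.4 CPM in CIA and 25.96 CPM in Cont. CIA was called lower than Cont (-0.67, background 8.64%) and CIA+VFX higher than CIA (0.63, background 7.15%). Without doublet removal both were below the fold (-0.21 and 0.49), and the second was also below it with a stricter cell filter (0.57) and under median-of-ratios scaling (0.51).

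One fibroblast cluster carried 4 members higher in both chemotherapy libraries. In cluster 34, led by Postn and Cdkn1c, Gli2 was 138 CPM in CIA+VFX, 141 CPM in CIA and 49.3 CPM in Cont. Gli1 was 47.0 CPM in CIA+VFX, 52.9 CPM in CIA and 28.5 CPM in Cont. Ptch1 was 61.8, 48.8 and 31.99 CPM and Hhip 48.9, 45.8 and 29.4 CPM in CIA+VFX, CIA and Cont. All 4 were called higher in CIA than in Cont, with log2 ratios from 0.61 (Ptch1) to 1.51 (Gli2), and in CIA+VFX than in Cont, from 0.72 (Gli1) to 1.49 (Gli2). Of all measured genes in this cluster, 13.7% were called higher in CIA than in Cont and 8.54% in CIA+VFX than in Cont. The cluster had 178 cells in CIA+VFX, 224 in CIA and only 84 in Cont. Thinning moved Gli1 below the fold (0.09 and 0.33) and the other 3 upwards, to between 1.44 (Hhip) and 3.16 (Ptch1) for CIA against Cont. Ptch1 and Hhip were below the fold in that comparison under median-of-ratios scaling (0.53 and 0.56). For Ptch1 that call was also lost at a finer clustering (0.49) and without doublet removal (0.48). The co-receptor Boc went the other way in this cluster, at 21.9 CPM in CIA+VFX, 13.4 CPM in CIA and 29.4 CPM in Cont. It was called lower in CIA than in Cont (-1.13, background 8.58%) and higher in CIA+VFX than in CIA (0.71, background 3.50%). The second was below the fold at a coarser clustering (0.36) and without doublet removal (0.44).

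Summed over all mesenchymal clusters, Hhip was 497 CPM in CIA+VFX, 310 CPM in CIA and 567 CPM in Cont. CIA was called lower than Cont (log2 -0.87, background 6.25%) and CIA+VFX higher than CIA (0.68, background 4.66%). The second was below the fold after thinning (0.57) and as a mean over cells (0.58). Dermal papilla-like cells made up 751 of 2511 mesenchymal cells in CIA+VFX, 810 of 3748 in CIA and 557 of 2026 in Cont, and the class holds most of the Hhip UMIs. The part of that share in the summed difference was not tested.

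**Figure D4:**
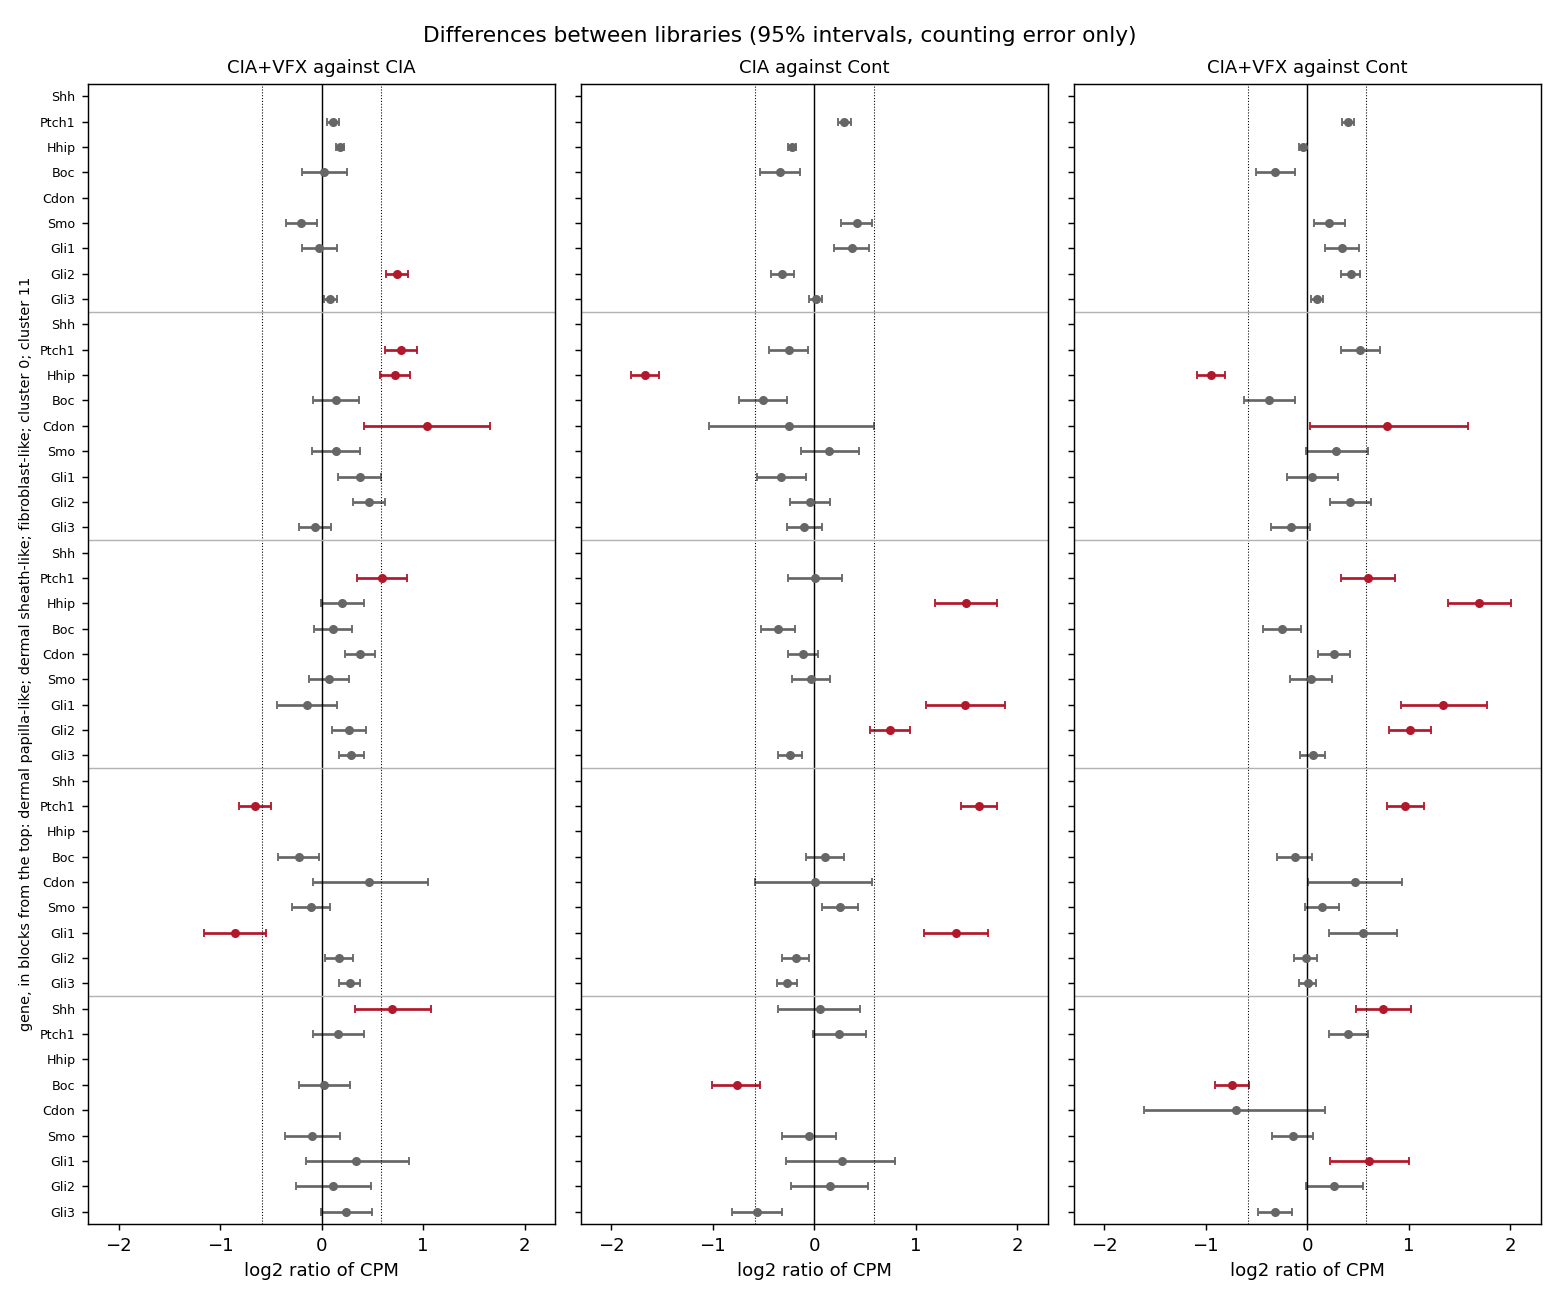
Log2 ratios of CPM with 95% intervals for the 3 comparisons (panels), for genes in blocks from the top: dermal papilla-like, dermal sheath-like and fibroblast-like cells, cluster 0 and cluster 11. Hhip lies at -1.67 in dermal sheath-like cells and at 1.49 in fibroblast-like cells for CIA against Cont.

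In cluster 0, an unnamed epithelial cluster, Ptch1 and Gli1 were higher in CIA than in Cont and lower in CIA+VFX than in CIA. The cluster was led by Gnmt and Cxcl14. It scored highest for basal keratinocyte markers but had none of them among its 10 leading genes. It had 903 cells in CIA+VFX, 639 in CIA and 710 in Cont. Ptch1 was 70.5 CPM in CIA+VFX, 111 CPM in CIA and 36.1 CPM in Cont, and no 2 of the intervals overlapped. Gli1 was 18.5 CPM in CIA+VFX, 33.2 CPM in CIA and 12.6 CPM in Cont. CIA was called higher than Cont for both genes, by 1.62 (1.44 to 1.80) for Ptch1 and 1.40 (1.08 to 1.72) for Gli1. CIA+VFX was called lower than CIA for both, by -0.65 and -0.85, and Ptch1 was called higher in CIA+VFX than in Cont (0.97, background 12.7%).

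All measured genes of cluster 0 had a median log2 ratio of 0.22 when CIA was set against Cont and -0.058 when CIA+VFX was set against CIA. For CIA against Cont, 20.1% of measured genes were called higher, beside 2 of 7 measured members. For CIA+VFX against CIA, 4.20% of measured genes were called lower, also beside 2 of 7 measured members. The lower Ptch1 of CIA+VFX against CIA was below the fold at a finer clustering (-0.37), without doublet removal (-0.25) and as a mean over cells (-0.57), and that of Gli1 at a finer clustering (-0.56) and after thinning (-0.51). Both calls for CIA against Cont held under every alternative run, with values from 1.18 to 1.68 for Ptch1 and from 0.94 to 1.43 for Gli1. Classing cells by their own markers was not run for numbered clusters.

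Proliferation moved with these levels. Mki67 in cluster 0 was 52.4 CPM in CIA+VFX, 85.5 CPM in CIA and 10.0 CPM in Cont. With cells holding a UMI of Mki67, Top2a, Cdk1 or Ccnb1 left out (24.6%, 27.2% and 15.5% of the cells), Ptch1 was 65.4 CPM in CIA+VFX, 113 CPM in CIA and 35.3 CPM in Cont. CIA was then 1.68 above Cont on the log2 scale and CIA+VFX was -0.79 against CIA. Gli1 gave 1.43 and -0.92. Leaving these cells out was chosen after the levels had been seen and may not remove every cycling cell, so the part of proliferation in these levels was not tested further. Median depths of the cluster were 8073 UMIs in CIA+VFX, 8086 in CIA and 12120 in Cont.

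Of the 55 other listed pathway genes, 39 were measured in cluster 0 for CIA against Cont, with 7 called higher and 3 lower. Of all measured genes there, 20.1% were called higher and 4.39% lower. Hhip was near 0 in this cluster, at 1.37 CPM in CIA+VFX, 0.493 CPM in CIA and 1.29 CPM in Cont.

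Cluster 3, also unnamed and led by Kcnb2 and Dlg2, gave part of the same pattern. Ptch1 was 78.9 CPM in CIA+VFX, 118 CPM in CIA and 56.0 CPM in Cont, and Gli1 was 23.9 CPM in CIA+VFX, 24.96 CPM in CIA and 11.3 CPM in Cont. Both were called higher in CIA than in Cont (1.08 and 1.14), where 13.7% of measured genes were called higher. Against CIA, CIA+VFX was not called for Ptch1 (-0.58) or Gli1 (-0.06). Smo was 65.5 CPM in CIA+VFX, 103 CPM in CIA and 70.1 CPM in Cont and was called lower in CIA+VFX than in CIA (-0.66, background 5.64%). Cdon was 15.3, 24.5 and 12.04 CPM in CIA+VFX, CIA and Cont. It was called higher in CIA than in Cont and lower in CIA+VFX than in CIA, but neither call held without doublet removal (0.18 and -0.50). Mki67 was again highest in CIA, with 44.5 CPM in CIA+VFX, 102 CPM in CIA and 16.3 CPM in Cont. Without the cells holding a mitotic UMI, Ptch1 gave 0.95 and Gli1 1.22 for CIA against Cont.

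Cluster 21, led by Adamts19 and Nppc, scored close to the bulge and outer root sheath and also had the stem cell keratin Krt15 among its leading genes. Ptch1 was 36.9 CPM in CIA+VFX, 34.6 CPM in CIA and 22.7 CPM in Cont, and Boc was 85.7 CPM in CIA+VFX, 90.9 CPM in CIA and 54.8 CPM in Cont. Both were called higher in CIA and in CIA+VFX than in Cont, where 17.3% and 15.4% of measured genes were called higher. Under median-of-ratios scaling all 4 values fell below the fold, at 0.44 to 0.56. Ptch1 for CIA+VFX against Cont was also below it, at 0.45, with the cells holding a mitotic UMI left out.

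Classing each cell by its own markers instead of its cluster gave smaller differences in basal keratinocyte-like cells. Cells classed in this way as basal keratinocyte-like had Ptch1 at 33.7 CPM in CIA+VFX, 37.2 CPM in CIA and 27.8 CPM in Cont. The log2 ratio for CIA against Cont was 0.42 for Ptch1 and 0.53 for Gli1, both under the fold. The bulge and outer root sheath class was smaller, with 200 cells in CIA+VFX, 187 in CIA and 78 in Cont. Ptch1 there was 124 CPM in CIA+VFX, 172 CPM in CIA and 108 CPM in Cont. Gli1 was 26.2 CPM in CIA+VFX, 44.8 CPM in CIA and 15.7 CPM in Cont, from 31, 44 and 7 UMIs.

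In matrix and hair shaft-like cells (cluster 22, led by Krt35, S100a3 and Krtap8-1), the repressor gene Gli3 was called in 2 comparisons. Gli3 was 403 CPM in CIA+VFX (300 cells), 239 CPM in CIA (162 cells) and 366 CPM in Cont (291 cells). CIA was called lower than Cont (-0.62, background 3.66%) and CIA+VFX higher than CIA (0.75, background 4.15%). After thinning the values were -0.45 and 0.44, below the fold, and with a stricter cell filter the first was -0.41. Ptch1 was 136 CPM in CIA+VFX, 121 CPM in CIA and 92.3 CPM in Cont, without a call. Gli1 was 22.03 CPM in CIA+VFX, 17.1 CPM in CIA and 10.9 CPM in Cont, and CIA+VFX was called higher than Cont (1.02, background 4.72%; 1.78 after thinning). Boc was 74.2 CPM in CIA+VFX, 99.5 CPM in CIA and 111 CPM in Cont. It was called lower in CIA+VFX than in Cont at -0.59, close to the fold (background 2.33%), and was at -0.054 after thinning.

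Smo, which is not itself a target of the pathway, was detected in both the epithelium and the mesenchyme. In cluster 5 it was at its highest among the clusters, with 120 CPM in CIA+VFX, 134 CPM in CIA and 123 CPM in Cont, and no comparison there was called. Over the epithelial compartment it was 51.4 CPM in CIA+VFX, 54.6 CPM in CIA and 55.1 CPM in Cont, and over the mesenchyme 56.0, 53.8 and 50.5 CPM. In macrophage and monocyte-like cells it was low and differed, with 5.27 CPM in CIA+VFX, 4.23 CPM in CIA and 10.6 CPM in Cont. It was called lower in CIA than in Cont (-1.33) and in CIA+VFX than in Cont (-1.01), where 10.9% and 8.34% of measured genes were called lower. The make-up of this class differed. Its cluster 1, led by Ccl8 and Folr2, had 523 cells in CIA+VFX, 745 in CIA and 817 in Cont. Cluster 4, led by Chil3 and Ly6c2, had 608, 965 and 117. Within cluster 1 the Smo values were -0.77 and -0.85, the second below the fold without doublet removal (-0.52). The part of the make-up was not tested.

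The co-receptors Boc and Cdon had their highest levels in different cells, but fibroblast-like cells held both. In CIA these cells held 12.9% of all Boc UMIs and 39.1% of all Cdon UMIs. Boc was highest in cluster 5, at 270 CPM in CIA+VFX, 279 CPM in CIA and 291 CPM in Cont, and next among the named classes in inner root sheath-like cells, at 121 CPM in CIA+VFX, 126 CPM in CIA and 129 CPM in Cont. The 3 libraries overlapped in both. In pericyte and smooth muscle-like cells Boc was 60.6 CPM in CIA+VFX, 43.1 CPM in CIA and 118 CPM in Cont. CIA was called lower than Cont (-1.45, background 7.58%) and CIA+VFX lower than Cont (-0.96, background 7.29%). Both were below the fold when each cell was classed by its own markers (-0.50 and -0.40), and Cont had only 73 such cells.

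Cdon was highest in lymphoid clusters. In cluster 16, led by Il17a, Scart1 and Trdc, a gene of the gamma delta T-cell receptor, Cdon was 122 CPM in CIA+VFX, 190 CPM in CIA and 120 CPM in Cont. CIA was called higher than Cont (0.66, background 9.25%) and CIA+VFX lower than CIA (-0.64, background 6.44%). At a coarser clustering these were 0.55 and -0.26, and thinning gave -0.50 for the second, all below the fold. In cluster 25, led by Scart2 and Il23r, Cdon was 169 CPM in CIA+VFX, 132 CPM in CIA and 103 CPM in Cont, an order that differed from that of cluster 16.

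The whole T, NK and innate lymphoid-like class followed cluster 16, which is part of it. Cdon there was 63.6 CPM in CIA+VFX, 126 CPM in CIA and 52.0 CPM in Cont. CIA was called higher than Cont (1.27, background 12.8%) and CIA+VFX lower than CIA (-0.98, background 4.51%). The second was below the fold by the cells' own markers (-0.47) and at a coarser clustering (-0.56). Cluster 16 made up 267 of 556 cells of the class in CIA+VFX, 439 of 710 in CIA and 294 of 773 in Cont. The part of that share in the class level was not tested. Fibroblast markers in cluster 16 summed to 41.1 CPM in CIA+VFX, 58.9 CPM in CIA and 34.3 CPM in Cont, while Cdon in fibroblast-like cells was 79.2 CPM in CIA+VFX, 60.9 CPM in CIA and 65.8 CPM in Cont. The Cdon level of cluster 16 was thus above that of the fibroblasts in each library. Macrophage and monocyte-like cells had 0.14, 0.66 and 0.49 CPM in CIA+VFX, CIA and Cont.

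**Figure D5:**
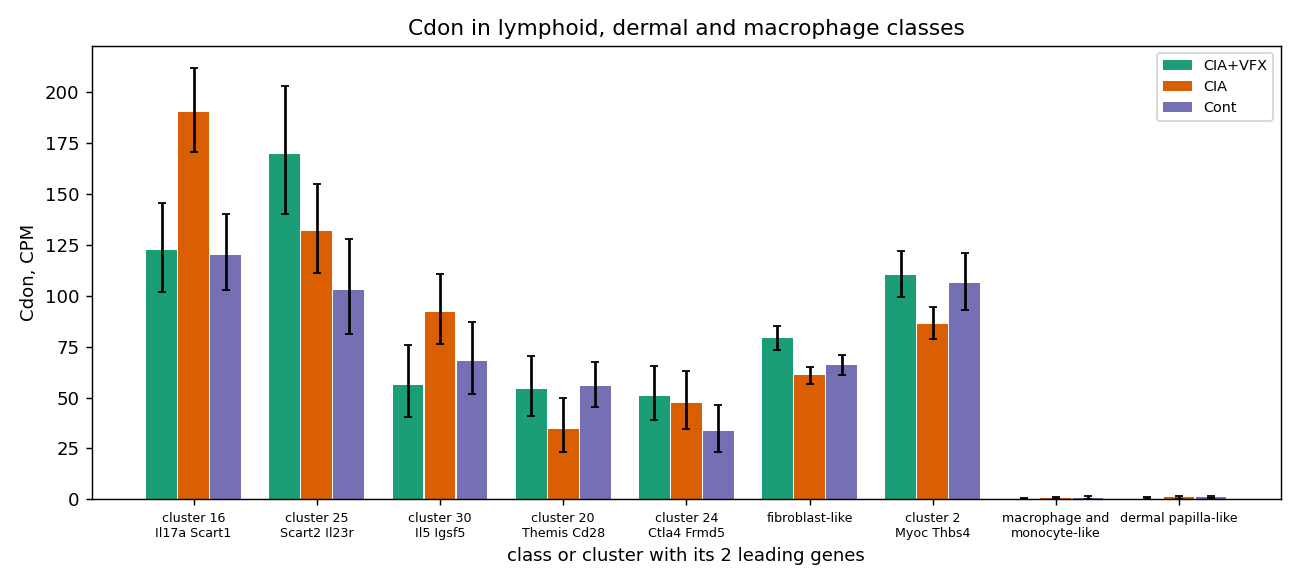
Cdon in CPM with exact Poisson intervals in lymphoid clusters, dermal classes and macrophage and monocyte-like cells, for CIA+VFX, CIA and Cont. Cluster 16 is highest in CIA, at 190 CPM, and macrophage and monocyte-like cells are near 0.

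The order of the levels within a library was clear at the top only. For Ptch1, dermal papilla-like cells stood above every other named class in each library. Below them, matrix and hair shaft-like and dermal sheath-like cells overlapped in CIA+VFX (136 and 144 CPM) and in Cont (92.3 and 99.9 CPM). In CIA the matrix and hair shaft-like cells (121 CPM) stood above the dermal sheath-like cells (83.8 CPM). For Gli1, dermal sheath-like and dermal papilla-like cells overlapped in CIA+VFX (70.3 and 62.0 CPM) and in CIA (54.2 and 63.0 CPM), while in Cont the dermal sheath stood above the papilla (67.8 and 48.8 CPM). For Gli3 the top named class was again the dermal papilla. Matrix and hair shaft-like cells followed, at 403 CPM in CIA+VFX, 239 CPM in CIA and 366 CPM in Cont. Melanocyte-like cells also held Gli3, with 315 CPM in CIA+VFX, 234 CPM in CIA and 220 CPM in Cont.

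Over the 16 named classes there were 144 pairs of member and class. For CIA against Cont, 59 were measured, and 7 of them (11.9%) were called higher and 8 (13.6%) lower. In the same classes 9.98% of all measured genes were called higher and 8.81% lower. For CIA+VFX against CIA, 69 pairs were measured, with 12 (17.4%) higher and 2 (2.9%) lower, against 4.54% and 3.48% of all genes. For CIA+VFX against Cont, 67 were measured, with 11 (16.4%) higher and 9 (13.4%) lower, against 8.82% and 6.83%. The 12 higher pairs of CIA+VFX against CIA included 3 in dermal sheath-like cells and single genes elsewhere, and 4 pairs met the rule after thinning to 2000 UMIs. The 3 dermal sheath pairs each fell below the fold under some alternative. So did Gli2 in dermal papilla-like, Ptch1 in fibroblast-like and sebocyte-like and Gli3 in matrix and hair shaft-like cells. Boc in lymphatic endothelial-like and Cdon in dendritic-like and vascular endothelial-like cells did as well. Shh in inner root sheath-like and Boc in skeletal muscle and satellite-like cells were not among these.

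Of the other 55 genes listed for the pathway, 44 were measured in dermal papilla-like cells, and 6 were called higher and 2 lower for CIA against Cont, where 7.48% of all measured genes were called higher and 5.08% lower. Of ligand and release genes, 2 of 8 measured were called higher in CIA than in Cont, Disp1 and Scube1, which help release or carry the lipid-modified ligand. Scube1 was 116 CPM in CIA+VFX, 162 CPM in CIA and 52.4 CPM in Cont, and it was called higher than Cont in CIA+VFX (log2 1.15) and in CIA (1.62). Of the reception genes, the co-receptor Gas1 was called lower in CIA+VFX and in CIA than in Cont, at 86.6 CPM in CIA+VFX, 93.5 CPM in CIA and 141 CPM in Cont. Among transduction and cilium genes, 2 of 13 were called higher in CIA than in Cont, Ift172 and Ulk3. Of 12 GLI processing genes, 0 were called in any of the 3 comparisons.

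Reported targets of the pathway moved in both directions in the papilla. For CIA against Cont, Sox9 and Igfbp3 were called higher and Ccnd1 lower, of 9 measured. Igfbp3, a secreted binder of insulin-like growth factors, was 179 CPM in CIA+VFX, 203 CPM in CIA and 85.2 CPM in Cont. Ccnd1, which encodes cyclin D1, was 9.10 CPM in CIA+VFX, 4.65 CPM in CIA and 8.35 CPM in Cont. For CIA+VFX against CIA, Ccnd1 and Cdk6 were called higher and none of the other 4 lists had a call. List medians for CIA against Cont were 0.16 for ligands and release, 0.31 for transduction and cilium, -0.057 for GLI processing and -0.22 for targets, beside 0.10 for all measured genes.

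The same lists gave other genes elsewhere. In fibroblast-like cells Ccnd1 was 34.1 CPM in CIA+VFX, 21.6 CPM in CIA and 71.3 CPM in Cont and was called in all 3 comparisons. For CIA against Cont, 3 of 40 measured listed genes were called higher there (6.45% of all measured genes) and 2 lower. The counts were 1 higher (4.68%) and 1 lower of 40 for CIA+VFX against CIA. For CIA+VFX against Cont they were 3 higher (6.98%) and 1 lower of 39. The share of all genes called lower in this class is not given. Over the named classes pooled it was 8.81% for CIA against Cont, 3.48% for CIA+VFX against CIA and 6.83% for CIA+VFX against Cont. In matrix and hair shaft-like cells Ccnd1 went the other way, with 99.2 CPM in CIA+VFX, 106 CPM in CIA and 63.7 CPM in Cont, called higher in CIA and in CIA+VFX than in Cont (0.74 and 0.64). Mycn, a growth-promoting target, was 32.6 CPM in CIA+VFX, 17.1 CPM in CIA and 21.2 CPM in Cont there, and CIA+VFX was called higher than CIA (0.93). Of the listed genes in this class, 2 of 31 measured were called higher and 2 lower (3.66% of all measured genes) for CIA against Cont. Over the named classes pooled, 9.98% of measured genes were called higher in that comparison. For CIA+VFX against CIA, 1 of 29 was called higher (4.15%) and 0 lower. For CIA+VFX against Cont, 3 of 33 were called higher (4.72%) and 4 lower (2.33%). Of 12 GLI processing genes, none was called in either class in any comparison.

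Genes with the most similar pattern were ranked by Pearson correlation of log2(CPM + 1) over 102 pairs of class or cluster and library. These pairs share libraries and depth, so the values are descriptions. For Shh the 4 closest were Pcsk2 (0.771), Dlx4 (0.750), Krt26 (0.715) and Krt28 (0.709). For Ptch1 they were Yaf2 (0.824), Ebf4 (0.802), Trrap (0.796) and Arhgap35 (0.788). For Gli1 they were Ror2 (0.850), Arhgef17 (0.808), Msi1 (0.805) and Fzd2 (0.801). For Hhip they were Zic4 (0.881), Frem1 (0.877), Fgf10 (0.876) and Fbn2 (0.875).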

How the data were processed

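The deposited values are UMI counts per gene and barcode. The authors ran Cell Ranger 8.0.1 to make them, per the file headers, and the libraries were of the Chromium GEM-X 3' v4 kind, per the labels' protocols. GRCm39 and FastQC 0.11.7 are named in the submitters' processing notes. The lowest barcode had 500 UMIs, and none of the sources used here gives a correction for free RNA.

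Barcodes passed with 500 or more genes and no more than 15% mitochondrial UMIs. Doublet scores came from simulated doublets (2 for each cell) among 30 neighbours, and 0.4% per 1000 barcodes were removed from each library. The 9 genes and the 5 pathway lists were left out of clustering, which used 2000 variable genes, 40 principal components, 20 neighbours and Leiden resolution 1.5, with no integration across libraries. Markers of 25 cell types named the clusters, with thresholds set after the clusters had been seen. Summed UMIs of a class and library gave its levels, with exact Poisson intervals. Ratios had exact conditional binomial intervals without a pseudocount, and shares exact Clopper-Pearson intervals. For a share of 0 the upper limit is 3 counts of the total, which bounds cells with a UMI and not cells expressing the gene. With 1 library per group no test across samples was possible. The calculation was checked on simulated counts.

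All 9 members are named. For Shh, Ptch1, Gli1 and Hhip the 4 genes closest in pattern are named. Pathway genes were taken from those called in the dermal papilla, fibroblast and matrix and hair shaft classes. Exceptions named outside this rule are Dhh and Ihh, the other ligand genes. Members, lists and alternatives were chosen with earlier results of these data known. The median ratio of all genes lay over 0.1 (log2) from 0 in some classes, by up to 0.23 in skeletal muscle and satellite-like cells and 0.22 in cluster 0. 1 of the 55 listed pathway genes is not reported here. Promoters are from RefSeq (GRCm38.p6), and no other coordinates are given. Python 3.11.15 was used, with scipy 1.17.1, numpy 2.4.6, pandas 2.3.3, scikit-learn 1.9.0, igraph 0.11.9, leidenalg 0.10.2, matplotlib 3.10.9 and seed 1. Alternatives were 2 other resolutions, cells classed one by one from their markers, a filter of 1000 genes and 8% mitochondrial UMIs, doublets kept, median-of-ratios scaling, thinning to 2000 UMIs, the mean over cells and a minimum of 10 UMIs.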

Additional observations from a re-analysis of the deposited data

How the results depend on the processing

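No paired analysis was possible because each group had 1 library. Of 5387 values computed under 10 alternatives, 4750 lay within the interval of the reported value, 624 outside it, and 13 were called values that took the opposite sign. Values of uncalled results took the opposite sign 475 times and are counted within or outside the interval, Gli1 and Ptch1 of dermal papilla-like cells among them. Thinning to 2000 UMIs (266 outside) and the mean over cells (160) moved the most. The alternative without cells holding a mitotic UMI was chosen after seeing the data and moved none of its 16 values outside the interval. Opposite signs of called values were found for Gli2 in fibroblast-like cells (CIA against Cont, -0.021 at resolution 0.8 and -0.026 at 2.5), Gli3 in inner root sheath-like cells classed by their own markers (CIA+VFX against Cont, 0.11) and Hhip in cluster 2 at resolution 2.5 (CIA+VFX against Cont, -0.84). After thinning they were found for CIA+VFX against CIA in Ptch1 of sebocyte-like cells (-0.20), Boc of suprabasal keratinocyte-like cells (0.053) and Cdon of cluster 30 (0.013). Without doublet removal they arose for Ptch1 in vascular endothelial-like cells (-0.36 for CIA against Cont, -0.14 for CIA+VFX against Cont), Ptch1 in cluster 12 (-0.45 and -0.19) and Hhip in cluster 42 (CIA+VFX against Cont, -0.061). As a mean over cells, Ptch1 in cluster 37 gave 0.20 for CIA+VFX against Cont. The causes were not tested.

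In dermal papilla-like cells, classing by own markers gave Ptch1 0.028 and Hhip -0.49 for CIA against Cont, and Ptch1 0.39, Gli1 0.16 and Hhip 0.45 for CIA+VFX against CIA. Thinning gave Gli1 -0.37 and Hhip -0.30 for CIA against Cont, Ptch1 0.016, Gli1 0.56 and Hhip 0.28 for CIA+VFX against CIA, and Ptch1 0.25 for CIA+VFX against Cont. The mean over cells gave Gli1 -0.037 and Hhip -0.32 for CIA against Cont, Ptch1 -0.0039 for CIA+VFX against CIA, and Ptch1 0.24, Gli1 0.064 and Hhip -0.17 for CIA+VFX against Cont. Median-of-ratios scaling gave Ptch1 0.20 and Hhip -0.32 for CIA against Cont and 0.33 and -0.12 for CIA+VFX against Cont, and keeping doublets gave Hhip 0.24 for CIA+VFX against CIA and -0.28 for CIA against Cont. In dermal sheath-like cells Hhip was -1.38 (CIA against Cont) and 0.40 (CIA+VFX against CIA) by own markers, -0.96, 0.52 and -0.43 for the 3 comparisons with doublets kept, and -1.18 (CIA+VFX against Cont) after thinning. In cluster 0, Ptch1 for CIA against Cont was 1.21 at resolution 2.5, 1.18 with doublets kept, 1.34 thinned, 1.43 as a mean over cells and 1.40 with median-of-ratios scaling. For CIA+VFX against CIA it was -0.37 at resolution 2.5 and -0.25 with doublets kept, and for CIA+VFX against Cont 0.70 thinned. Gli1 there was 0.94 (CIA against Cont) and -0.51 (CIA+VFX against CIA) thinned. Epithelial Shh after thinning was 1.78 for CIA+VFX against CIA and 0.82 for CIA+VFX against Cont.

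Counts of called pairs over the named classes moved past 1.5 times as follows. CIA against Cont, lower, was 13 by own markers and 14 with a minimum of 10 UMIs, against 8. CIA+VFX against CIA, higher, was 4 thinned, against 12. CIA+VFX against CIA, lower, was 1 by own markers, at resolution 2.5 and thinned, and 0 at resolution 0.8, against 2. CIA+VFX against Cont, higher, was 6 at both resolutions and thinned and 7 with median-of-ratios scaling, against 11. The number of measured pairs can differ between alternatives and is not given, nor is the share of all genes called. These counts therefore do not show whether the share of members called changed. Shh outside cluster 11 and Hhip in cluster 0 rest on few UMIs.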
